A study of Mus musculus with 19 samples.

Results

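The genes described here are those of Th2 cultures from which the transcription factor Bcl11b was deleted late, compared with undeleted cultures of the same stage. The comparison took 4 of the 16 RNA libraries of the series, 2 labelled Th2 Late Bcl11b KO and 2 labelled Th2 Late Bcl11b WT. Of 22878 gene symbols in the deposited tables, 10052 reached 1 RPKM (reads scaled to transcript length and library size) in at least 2 of these 4 libraries and were tested. For both groups, naive mouse CD4 T cells of the genotype Bcl11b fl/fl-CreERT2 were kept for 4 days under Th2 conditions, rested for 1 day in medium with IL-2 and returned to Th2 conditions for 4 more days. The KO cultures received 4-OHT (4-hydroxytamoxifen, which activates CreERT2) in that last period and the WT cultures did not, so WT cells also carried the floxed alleles and the recombinase. Effects of the drug and of the deletion therefore cannot be told apart. The promoter behind CreERT2, the number of animals and whether the libraries of a group came from separate cultures were not given in the sources used here. The p-values thus measure only the spread between these libraries, which may be technical.

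Bcl11b is a zinc finger protein that T cell precursors need to commit to the T lineage and that mature T cells keep expressing. Th2 cells are the helper T cells that secrete IL-4, IL-5 and IL-13, and GATA3 is the factor that establishes this programme. In thymocytes, loss of Bcl11b is known for the appearance of natural killer cell features. The late comparison addresses what cells that have already been through a Th2 culture do when Bcl11b is removed, while the early cultures of the series were deleted during the first 4 days. Further groups of the series enter below, namely early Bcl11b KO and WT cultures of the same genotype, late Gata3 KO and WT cultures whose genotype and culture are not described in the sources used here, and 1 ChIP library each for Bcl11b and GATA3 from late WT Th2 cells.

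The libraries held 14577958 and 9577013 gene reads in KO and 14436485 and 13798627 in WT. These reads made up 49.5% and 42.8% of the total implied by the RPKM values in KO, and 52.8% and 49.6% in WT. Reads over 1465 olfactory and vomeronasal receptor transcripts, which T cells are not known to use, came to 0.362 and 0.359 per kilobase in KO and 0.294 and 0.270 in WT. These values are not scaled to library size, and KO library 2 held the fewest gene reads. Background was thus higher in KO and, relative to gene reads, highest in KO library 2. The markers fixed for a Th2 culture were all measured: 11 of 11 passed the filter, and their summed level was 3515 and 2937 RPKM in KO and 2163 and 2331 RPKM in WT. At this summed level the label of a Th2 culture held in all 4 libraries.

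Levels are given in CPM, read counts scaled to library size with trimmed means, in KO library 1 and 2 and then WT library 1 and 2. Each fold change is the log2 of KO over WT ± its standard error (n = 2 libraries a group). Each adjusted p comes from the quasi-likelihood test of edgeR with Benjamini-Hochberg adjustment over all tested genes, and a gene was called at an adjusted p under 0.05.

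The targeted gene itself was not called. Bcl11b stood at 74.9 and 138 CPM in KO, against 139 and 176 CPM in WT, with a log2 fold change of -0.57 ± 0.22 and an adjusted p of 0.1. The groups did not overlap, but KO library 2 lay just under WT library 1. Reads from exons outside a deleted part do not report the deletion, and the sources used here do not say which exons are floxed. Gata3 had 624 and 744 CPM in KO and 702 and 802 CPM in WT, with a log2 fold change of -0.14 ± 0.16 and an adjusted p of 0.629, and its groups overlapped. The Th2 regulator was thus abundant in all 4 libraries.

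Late deletion was followed by more and larger rises than falls. Of the 10052 genes, 941 rose (9.36% of those tested) and 613 fell (6.1%). The rises had a median size of 1.04 on the log2 scale and 493 of them reached 2-fold, which is 52.4%, while the falls had a median of 0.767 and 137 of them, or 22.3%, reached 2-fold. A rise of at least 8-fold was seen for 55 genes and a fall of that size for 1. The genes that rose had a median level of 7.71 RPKM in KO and 4.24 RPKM in WT, and 187 of them lay under 1 RPKM in WT, where the filter on low values can admit a gene through KO alone. The genes that fell came from a higher range, with a median of 8.45 RPKM in KO and 16.4 RPKM in WT. Groups did not overlap for 940 of the rises and for every fall, against 54.9% of all tested genes. Where the groups of a called gene are said below not to overlap, this describes its values and adds no support to its call.

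These counts depended on single libraries. Without KO library 2 there were 622 rises and 318 falls, and without KO library 1 the falls came to 382; 665 of the 1554 calls held whichever library was left out. In limma on log2(RPKM + 1), 578 genes rose and 1094 fell, so rises made up 34.6% of the calls there against 60.6% in the main test, and the median of all tested genes lay at -0.18 instead of -0.01. Directions near 0 are therefore relative to the scaling. When the 4 early Bcl11b libraries shared the estimate of the spread, 192 genes rose and 62 fell, and 254 of the 1554 calls remained; 14 of the mitosis genes described below fell there.

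**Figure D1:**
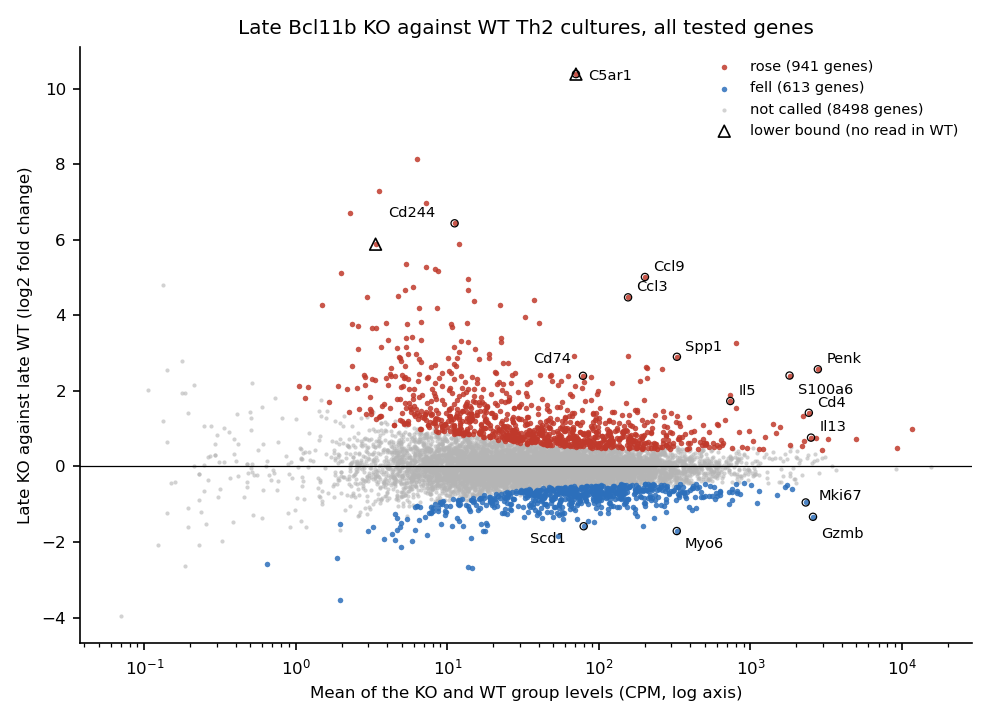
Mean level of each tested gene (CPM, log axis) against its late KO over WT log2 fold change; red, 941 genes that rose, blue, 613 that fell, grey, 8498 not called, and triangles, the 2 genes that rose with no WT read, at their lower bound. Rises reach much farther from 0 than falls.

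The 12 largest rises above 5 RPKM were led by C5ar1, the receptor of the complement fragment C5a on myeloid cells. C5ar1 gave 1944 and 1359 reads in KO (138 and 144 CPM) and no read in either WT library. Against a floor of 3 reads over the WT group it was at least 1335-fold higher in KO (adjusted p = 1.93e-11). The other 11 were the chemokines Ppbp, Ccl9, Ccl3, Ccl4 and Ccl5, the tetraspanin Cd63, the growth factor gene Pdgfa, the cornified envelope gene Sprr1a, Tmem158, Nkain1 and AI836003. Their fold changes lay between 3.81 and 5.18 on the log2 scale. Tmem158 may serve as an example, with 44 and 41.2 CPM in KO and 2.44 and 1.97 CPM in WT. Groups that did not overlap were a condition of this choice.

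**Figure D2:**
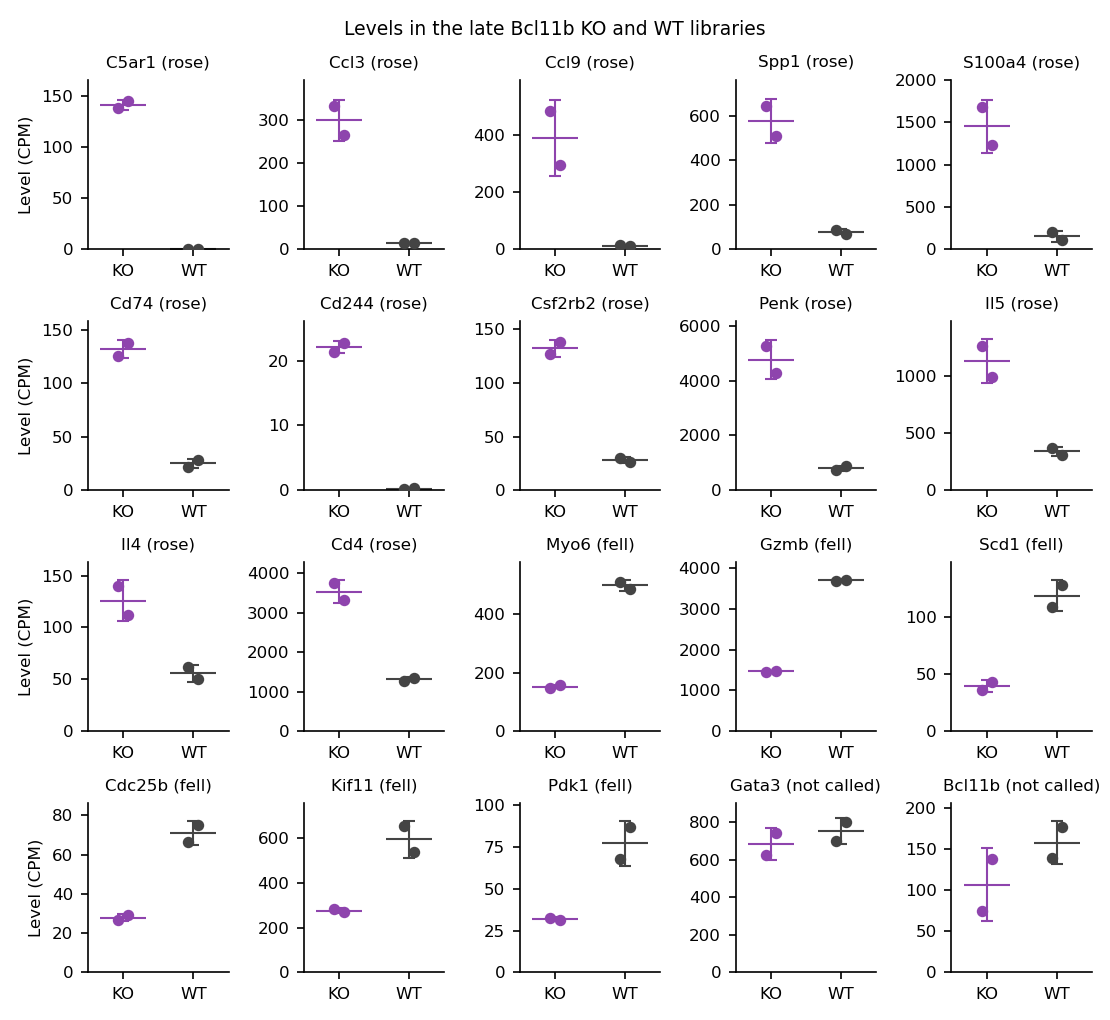
Level in each KO (left) and WT (right) library for 20 named genes in CPM on linear axes from 0; points are libraries, the wide dash is the mean and the bar 1 SD (n = 2). C5ar1 is at 0 in both WT libraries, while Gata3 overlaps between groups.

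Among Th2 genes the cytokines were called most often. Of 38 listed genes 36 were tested, and 10 rose and 2 fell, with a median log2 fold change of 0.28 against -0.01 for all tested genes. Calls made up 33.3% of those tested, against 15.5% of all tested genes. Leaving out 1 library gave 9 to 14 rises. Il3 and Csf2 were under 1 RPKM in both WT libraries and entered the test through KO alone. With these counted, 7 of the 10 tested cytokine genes rose. Penk, the precursor of enkephalin peptides, was the most abundant of them in KO, though not in WT, with 5272 and 4267 CPM in KO against 734 and 869 CPM in WT (log2 fold change 2.57 ± 0.17, adjusted p = 3.38e-08). Il5, the eosinophil growth factor, had 1268 and 994 CPM in KO and 368 and 313 CPM in WT (log2 fold change 1.73 ± 0.17, adjusted p = 1.85e-06). Il4, which both marks and drives Th2 cells, had 140.0 and 112 CPM in KO and 61.9 and 50.3 CPM in WT (log2 fold change 1.17 ± 0.18, adjusted p = 0.000249). Every KO value of these 3 genes lay above every WT value. Il13, which acts on airway epithelium and mucus, had 3179 and 3139 CPM in KO and 1582 and 2139 CPM in WT (log2 fold change 0.76 ± 0.16, adjusted p = 0.00365). Its call was lost in limma. In the fit of 8 libraries with the early Bcl11b groups, the calls of Il4, Il5 and Il13 were all lost (adjusted p = 0.0669, 0.0984 and 0.11). Csf2, which encodes GM-CSF, was low, with 6.30 and 5.53 CPM in KO and 0.628 and 0.282 CPM in WT (log2 fold change 3.68 ± 0.49, adjusted p = 6.61e-05), and Il3 rose at a similarly low level (log2 fold change 4.50 ± 0.59, adjusted p = 5.46e-05). Il10 was abundant and not called, at 1981 and 1785 CPM in KO and 1646 and 1339 CPM in WT (log2 fold change 0.34 ± 0.16, adjusted p = 0.169). The exception in direction was Areg, the epidermal growth factor relative amphiregulin, with 65.9 and 50.4 CPM in KO and 103 and 106 CPM in WT (log2 fold change -0.84 ± 0.18, adjusted p = 0.00331). Without KO library 2 its log2 fold change was -0.67 and the call was lost. Areg and Csf2 also lost their calls in the fit of 8 libraries (adjusted p = 0.3 and 0.0959). The same held in a fit of all 16 RNA libraries (adjusted p = 0.125 and 0.0541).

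The Th2 factors and receptors gave a mixed picture. Among 14 tested transcription factors 2 rose, too few to read beside the 9.36% of all tested genes that rose. Of these 2, Bhlhe40, a helix-loop-helix regulator of T cell cytokines, had 847 and 826 CPM in KO and 374 and 409.9 CPM in WT (log2 fold change 1.09 ± 0.15, adjusted p = 7.73e-05). The receptors of the IL-1 family went both ways. Il1r2, a decoy receptor for IL-1, had 191 and 181 CPM in KO and 81 and 86.8 CPM in WT (log2 fold change 1.15 ± 0.16, adjusted p = 7.85e-05). Il1rl1, which encodes the IL-33 receptor ST2, had 815 and 944 CPM in KO and 1410 and 1364 CPM in WT (log2 fold change -0.66 ± 0.15, adjusted p = 0.00574); it fell, but not when KO library 1 was left out (adjusted p = 0.134). Neither receptor overlapped between groups.

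The Il4 gene is shown with its start region because both antibodies gave a peak there in late WT cells. The strongest GATA3 peak within 1 kb of any rising gene's start, by the authors' score, lay at chr11:53617095-53618505 (mm10) beside Il4, with 197 tags and an 11.11-fold enrichment in the authors' list. A Bcl11b peak at chr11:53616408-53618284 held 105 tags at 3.22-fold. The next stretch holds 250 bases before and 50 bases after the Il4 start as RefSeq gives it for GRCm38.p6 (chr11:53617289-53617588, minus strand, written 5′ to 3′ along the gene). Capitals mark TGACCA on either strand, letters that the human paralogue BCL11A is known to bind.
Il4: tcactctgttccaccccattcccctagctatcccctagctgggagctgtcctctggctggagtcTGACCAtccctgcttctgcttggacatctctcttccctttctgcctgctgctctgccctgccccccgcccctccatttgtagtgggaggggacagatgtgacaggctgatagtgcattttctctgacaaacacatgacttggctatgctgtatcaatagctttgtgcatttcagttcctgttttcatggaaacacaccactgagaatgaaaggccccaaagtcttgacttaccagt
A match is a description of letters and does not show binding. TGACCA was found on at least one strand in 14.7% of 686 rising genes with a promoter entry and in 8.64% of 428 falling genes, against 10.6% of all 7177 tested genes with an entry. The GATA letters AGATAA were in 9.33% of rising and 8.41% of falling genes against 6.33% of all, and TGATAA in 4.37% and 3.97% against 4.01%. TGACCA can overlap the CCAAT letters discussed with the mitosis genes.

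Several chemokine ligands were among the largest rises. Of 24 listed ligands 12 were tested, and 10 of these rose and none fell, with a median log2 fold change of 3.12. The 10 were 83.3% of those tested, while 15.5% of all tested genes were called. Of the 12, 4 were under 1 RPKM in both WT libraries and passed the filter through KO alone, 3 of them among the rises, so the median describes the tested ligands only. Ccl3 and Ccl4, which attract monocytes and T cells, were at 332 and 264 CPM and 75.2 and 67 CPM in KO, against 13.2 and 13.6 CPM and 3.77 and 2.89 CPM in WT. Their log2 fold changes were 4.48 ± 0.19 (adjusted p = 1.76e-10) and 4.41 ± 0.24 (adjusted p = 3.69e-09). Ccl5, another attractant of T cells, had 76.2 and 46.8 CPM in KO and 3.77 and 4.23 CPM in WT (log2 fold change 3.94 ± 0.27, adjusted p = 5.41e-08). Ccl3 was thus already measured in WT, while Ccl4 and Ccl5 had at most 4.23 CPM in a WT library. Ccl9 had 484 and 296 CPM in KO and 14 and 10.1 CPM in WT (log2 fold change 5.01 ± 0.25, adjusted p = 1.31e-09). Ccl22 and Ccl17, ligands of the Th2 receptor Ccr4, were at 457 and 438 CPM and 89.1 and 72.9 CPM in KO, against 77.2 and 72.6 CPM and 15.8 and 14.4 CPM in WT, and both rose. The neutrophil attractants Ppbp (log2 fold change 5.18 ± 0.47, adjusted p = 9.45e-07) and Cxcl2 (log2 fold change 2.39 ± 0.39, adjusted p = 0.000376) rose at low levels, with at most 17.2 CPM in a KO library. The 12 untested ligands reached at most 6.52 CPM in any library.

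Their receptors were called in both directions. Of 16 listed chemokine receptors 9 were tested, 1 rose and 2 fell, with a median of 0.15. Calls made up 33.3% of those tested, against 15.5% of all tested genes, too few to read as a trait of the family. Xcr1, the receptor of the ligand Xcl1, rose, with 82.6 and 69.7 CPM in KO and 39.5 and 36.7 CPM in WT (log2 fold change 1.00 ± 0.18, adjusted p = 0.00103). Ccr2, which guides cells to inflamed tissue, had 65 and 70.9 CPM in KO and 171 and 149 CPM in WT (log2 fold change -1.24 ± 0.16, adjusted p = 5.76e-05). Both KO values of Ccr2 were far under the lower WT value.

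Among the cytokine receptors outside the Th2 list, 5 of 8 tested genes of the IL-6, IL-10 and IL-12 families and 2 of 4 of the beta common family rose. Of 31 listed receptors and SOCS inhibitors 28 were tested, 9 rose and 1 fell, and none of the 6 tested SOCS genes was called (median of the list 0.35). Calls made up 35.7% of those tested, against 15.5% of all tested genes. Among the rises 1 was under 1 RPKM in both WT libraries and passed the filter through KO alone. Csf2rb, the signalling chain shared by the IL-3, IL-5 and GM-CSF receptors, and its close relative Csf2rb2 both rose. Csf2rb2 had 127 and 138 CPM in KO and 30.3 and 26 CPM in WT (log2 fold change 2.23 ± 0.18, adjusted p = 2.26e-07), and Csf2rb had 138 and 136 CPM in KO and 44.8 and 36.3 CPM in WT (log2 fold change 1.75 ± 0.17, adjusted p = 2.63e-06). The pair is nearly identical in sequence, so how reads were split between them is uncertain. Osmr, the oncostatin M receptor, had 26.6 and 25.8 CPM in KO and 1.18 and 0.845 CPM in WT (log2 fold change 4.68 ± 0.34, adjusted p = 7.97e-08), and its signalling partner Il6st had 78.6 and 77.7 CPM in KO and 41.7 and 39.7 CPM in WT (log2 fold change 0.94 ± 0.17, adjusted p = 0.00122). Il2ra, the IL-2 receptor alpha chain, was the most abundant member and not called, at 16450 and 14670 CPM in KO and 16660 and 14840 CPM in WT. It overlapped between the groups.

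Genes of cytotoxic granules were called in both directions. Of 22 listed genes 17 were tested, 9 rose and 1 fell, with a median of 0.63. Calls made up 58.8% of those tested, against 15.5% of all tested genes. Among the rises 2 were under 1 RPKM in both WT libraries and passed the filter through KO alone. Gzmb, the protease with which killer cells induce apoptosis, had 1462 and 1480 CPM in KO and 3686 and 3717 CPM in WT (log2 fold change -1.33 ± 0.15, adjusted p = 8.41e-06). Gzma, a second abundant granzyme, was not called, with 477 and 594 CPM in KO and 428 and 569 CPM in WT. Among granule proteases and pore formers 3 of 10 tested genes rose and 1, Gzmb, fell, and among protease inhibitors and cathepsins 6 of 7 tested genes rose. Serpinb9, an inhibitor of granzyme B, had 26.2 and 20.2 CPM in KO and 8.65 and 5.71 CPM in WT (log2 fold change 1.69 ± 0.29, adjusted p = 0.00054), and Serpinb6b had 29.2 and 32.7 CPM in KO and 8.44 and 7.82 CPM in WT (log2 fold change 1.93 ± 0.24, adjusted p = 3.53e-05). Nkg7, a granule membrane protein of killer cells, had 74 and 59.8 CPM in KO and 25.1 and 21.5 CPM in WT (log2 fold change 1.52 ± 0.20, adjusted p = 4.56e-05). Groups did not overlap for the called genes of this set named here.

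A Bcl11b peak of late WT cells lay over the start of Gzmb at chr14:56261961-56262912 (mm10), with 38 tags and a 2.94-fold enrichment in the authors' list. That is a weak peak beside the one at Il4, and no GATA3 peak lay over the same stretch. Its promoter is shown as the falling counterpart of Il4, from RefSeq GRCm38.p6 (chr14:56262285-56262584, minus strand, 250 bases before and 50 after the start). Capitals mark TGACCA on the opposite strand, read here as TGGTCA.
Gzmb: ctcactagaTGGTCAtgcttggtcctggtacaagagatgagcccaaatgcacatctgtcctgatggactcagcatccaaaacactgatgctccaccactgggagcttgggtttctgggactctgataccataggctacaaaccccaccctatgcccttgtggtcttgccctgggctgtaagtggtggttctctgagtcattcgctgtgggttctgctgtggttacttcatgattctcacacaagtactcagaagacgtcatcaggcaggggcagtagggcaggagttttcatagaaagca
The 2 promoters thus share 1 match each to the TGACCA letters while their genes moved in opposite directions.

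Few receptor and adaptor genes of natural killer cells were high enough to be tested. Of 20 listed genes 7 were tested and 5 rose, namely 2 of 3 tested receptors and 3 adaptors. Of the 5, 4 lay under 1 RPKM in both WT libraries and entered the test through KO alone, so that nothing is read from their count. Cd244, a receptor of the SLAM family, had 21.4 and 22.7 CPM in KO and 0.140 and 0.352 CPM in WT (log2 fold change 6.43 ± 0.44, adjusted p = 5.36e-08). Klrg1, an inhibitory receptor of effector cells, had 6.52 and 8.08 CPM in KO and 0.976 and 1.41 CPM in WT (log2 fold change 2.60 ± 0.41, adjusted p = 0.000282). The signalling adaptor Fcer1g had 12.4 and 8.82 CPM in KO and 0.906 and 1.06 CPM in WT (log2 fold change 3.43 ± 0.40, adjusted p = 1.43e-05). Their KO levels were far under those of the T cell genes that follow. The 13 untested members reached at most 4.53 CPM.

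T cell identity genes were called in a share near that of genes in general, 18.9% of those tested against 15.5%. Of 42 listed genes 37 were tested, 6 rose and 1 fell, and the median was 0.05; only 2 rose without KO library 1. Cd4 itself had 3744 and 3326 CPM in KO and 1283 and 1359 CPM in WT (log2 fold change 1.42 ± 0.15, adjusted p = 5.71e-06). Cd3g, a chain of the T cell receptor complex, had 543 and 512 CPM in KO and 284 and 274 CPM in WT (log2 fold change 0.92 ± 0.15, adjusted p = 0.000376). Cd3e of the same complex was not called, at 1140 and 1197 CPM in KO and 1009 and 1086 CPM in WT. Chains of one receptor complex thus differed in their call.

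Genes of other helper programmes were called in part, in 30% of the tested Th1 genes and 31.8% of the tested Th17, Treg and Tfh genes, against 15.5% of all tested genes. Of 15 listed Th1 genes 10 were tested and 3 rose, with 1 rise left when KO library 1 was left out (median 0.19). The defining Th1 genes stayed too low for the test: Tbx21, the Th1 master factor, gave 88 and 37 reads in KO and 29 and 40 in WT, and Ifng gave 12 and 7 reads in KO and 22 and 2 in WT. Of 31 listed Th17, Treg and Tfh genes 22 were tested, 6 rose and 1 fell (median 0.30). Among these rises 2 were under 1 RPKM in both WT libraries and passed the filter through KO alone. Nrp1, a Treg surface protein, had 40.5 and 35.4 CPM in KO and 7.32 and 9.37 CPM in WT (log2 fold change 2.19 ± 0.24, adjusted p = 8.14e-06), and the ectonucleotidase Entpd1 had 122 and 144 CPM in KO and 47 and 52.6 CPM in WT (log2 fold change 1.42 ± 0.17, adjusted p = 2.24e-05). Foxp3, which defines Treg cells, was not called, with 10.3 and 8.50 CPM in KO and 8.44 and 9.02 CPM in WT. The follicular helper factor Bcl6 had 21.1 and 27 CPM in KO and 9.83 and 7.54 CPM in WT (log2 fold change 1.46 ± 0.27, adjusted p = 0.00106), while Il21, the cytokine of that programme, had 56.7 and 38.8 CPM in KO and 114 and 78.8 CPM in WT (log2 fold change -1.01 ± 0.21, adjusted p = 0.00351). The follicular pair therefore went in opposite directions in the main test. Both calls were lost in the fit of 8 libraries (adjusted p = 0.188 for Bcl6 and 0.252 for Il21). They were also lost in the fit of 16 (adjusted p = 0.0609 and 0.0884).

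Inhibitory receptors and genes of naive and memory cells held some rises. Of 10 listed inhibitory receptors 8 were tested and 3 rose (median 0.30), and of 20 naive and memory genes 17 were tested, with 6 rises and 3 falls (median 0.29). Calls made up 37.5% and 52.9% of those tested, against 15.5% of all tested genes. Among the naive and memory rises 1 was under 1 RPKM in both WT libraries and passed the filter through KO alone. Cd274, which encodes PD-L1, had 165 and 149 CPM in KO and 39.3 and 39.5 CPM in WT (log2 fold change 1.99 ± 0.17, adjusted p = 4.06e-07). Havcr2, which encodes Tim-3, had 286 and 241 CPM in KO and 104 and 85 CPM in WT (log2 fold change 1.48 ± 0.17, adjusted p = 1.14e-05). Ctla4 was not called, with 2681 and 2618 CPM in KO and 2559 and 2401 CPM in WT. The repressor Zeb2 had 174 and 168 CPM in KO and 87 and 64.4 CPM in WT (log2 fold change 1.18 ± 0.17, adjusted p = 0.000159). None of the 3 that rose overlapped between the groups.

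Most tested ligands of the TNF superfamily rose. Of 24 listed genes 21 were tested, 12 rose and 1 fell, with a median of 1.19. Calls made up 61.9% of those tested, against 15.5% of all tested genes. Among the rises 1 was under 1 RPKM in both WT libraries and passed the filter through KO alone. Of 11 tested ligands 9 rose, against 3 of 10 receptors. Tnfsf10, the death ligand TRAIL, had 266 and 243 CPM in KO and 108 and 72.5 CPM in WT (log2 fold change 1.5 ± 0.19, adjusted p = 2.89e-05). Tnfsf14 (LIGHT) had 39.7 and 42.9 CPM in KO and 14.5 and 13.5 CPM in WT (log2 fold change 1.56 ± 0.21, adjusted p = 7.41e-05), Tnfsf11 (RANKL) had 111 and 88.1 CPM in KO and 42 and 33 CPM in WT (log2 fold change 1.41 ± 0.19, adjusted p = 7.53e-05), and Cd40lg, the signal to B cells, had 87.2 and 83.8 CPM in KO and 37.3 and 31.6 CPM in WT (log2 fold change 1.31 ± 0.18, adjusted p = 8.33e-05). For these 4 ligands every KO value was above every WT value. All 4 calls were lost in the fit of 8 libraries (adjusted p = 0.202, 0.0672, 0.257 and 0.167, in the order named). Those of Tnfsf10, Tnfsf11 and Cd40lg were also lost in the fit of 16 (adjusted p = 0.0575, 0.0555 and 0.056). Tnfrsf9, the costimulatory receptor 4-1BB, was the most abundant member that rose, with 2988 and 3360 CPM in KO and 1059 and 1472 CPM in WT (log2 fold change 1.33 ± 0.17, adjusted p = 4.56e-05). Cd27, a receptor lost by differentiated T cells, had 20.8 and 27.2 CPM in KO and 51.6 and 58.5 CPM in WT (log2 fold change -1.21 ± 0.20, adjusted p = 0.00054) and was the 1 member that fell.

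Cathepsins and S100 proteins rose throughout those tested. The list of complement, protease and calcium binding genes held 35 genes, of which 28 were tested. Of these, 25 rose and 1 fell, with a median of 1.88. Calls made up 92.9% of those tested, against 15.5% of all tested genes. In both WT libraries 4 of the 28 lay under 1 RPKM. These 4 entered the test through KO alone, and all 4 rose, so count and median describe the tested members only. Leaving out 1 library gave 20 to 25 rises. All 9 tested genes of the cathepsin group rose, from 0.50 for Ctsa to 2.74 for Lgmn on the log2 scale. Lgmn was counted in this group but does not encode a cathepsin. The Ctsa call was lost without KO library 1, KO library 2 or WT library 1 (adjusted p = 0.17, 0.216 and 0.166). Ctsd, a lysosomal aspartic protease, had 1115 and 1204 CPM in KO and 299 and 327 CPM in WT (log2 fold change 1.89 ± 0.15, adjusted p = 2.81e-07). Ctsh, a lysosomal cysteine protease, had 85 and 90.3 CPM in KO and 20.6 and 18.7 CPM in WT (log2 fold change 2.16 ± 0.19, adjusted p = 5.58e-07). The lysosomal protease legumain, encoded by Lgmn, had 39.5 and 41.4 CPM in KO and 5.51 and 6.55 CPM in WT (log2 fold change 2.74 ± 0.24, adjusted p = 6.48e-07). None of the 3 overlapped between the groups. Of the small calcium binding S100 proteins, 7 were tested and 7 rose, from 0.63 for S100a10 (adjusted p = 0.0786 without KO library 1) to 3.27 for S100a4. S100a6 had 3297 and 2798 CPM in KO and 637 and 512 CPM in WT (log2 fold change 2.41 ± 0.17, adjusted p = 6.22e-08), and S100a4 had 1677 and 1228 CPM in KO and 196 and 105 CPM in WT (log2 fold change 3.27 ± 0.25, adjusted p = 1.21e-07). The neutrophil members S100a8 and S100a9 were too low to be tested.

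Calls among metalloproteinase, complement and adhesion genes were mostly rises. Of 6 tested metalloproteinase, ADAM and inhibitor genes 5 rose and 1 fell. Mmp10 had 45.4 and 36.6 CPM in KO and 4.88 and 3.52 CPM in WT (log2 fold change 3.28 ± 0.27, adjusted p = 2.76e-07), and the inhibitor Timp1 had 18.4 and 17 CPM in KO and 2.65 and 2.184 CPM in WT (log2 fold change 2.87 ± 0.32, adjusted p = 8.5e-06). Adam19 fell, with 470.5 and 431 CPM in KO and 789.6 and 685 CPM in WT (log2 fold change -0.71 ± 0.15, adjusted p = 0.00369; adjusted p = 0.0686 without KO library 2). Of 6 tested complement genes 4 rose, among them C3, the central complement protein, with 27.2 and 21.6 CPM in KO and 4.67 and 4.86 CPM in WT (log2 fold change 2.36 ± 0.28, adjusted p = 1.73e-05), and Cd55, which protects cells from complement, with 120.5 and 89.3 CPM in KO and 33.9 and 23.3 CPM in WT (log2 fold change 1.88 ± 0.21, adjusted p = 1.23e-05). Of 25 listed adhesion genes 21 were tested and 11 rose (median 0.73). These were 52.4% of those tested, while 15.5% of all tested genes were called. Of the 21, 3 lay under 1 RPKM in both WT libraries and entered the test through KO alone, and all 3 rose. Spp1, which encodes osteopontin, had 646 and 508 CPM in KO and 85.2 and 69.1 CPM in WT (log2 fold change 2.90 ± 0.18, adjusted p = 2e-08). Itgb2, the beta chain of the leukocyte integrins, had 929 and 977 CPM in KO and 372 and 439 CPM in WT (log2 fold change 1.23 ± 0.15, adjusted p = 3.22e-05). The hyaluronan receptor Cd44 was not called, at 232 and 223 CPM in KO and 229 and 206 CPM in WT, and its groups overlapped.

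**Figure D3:**
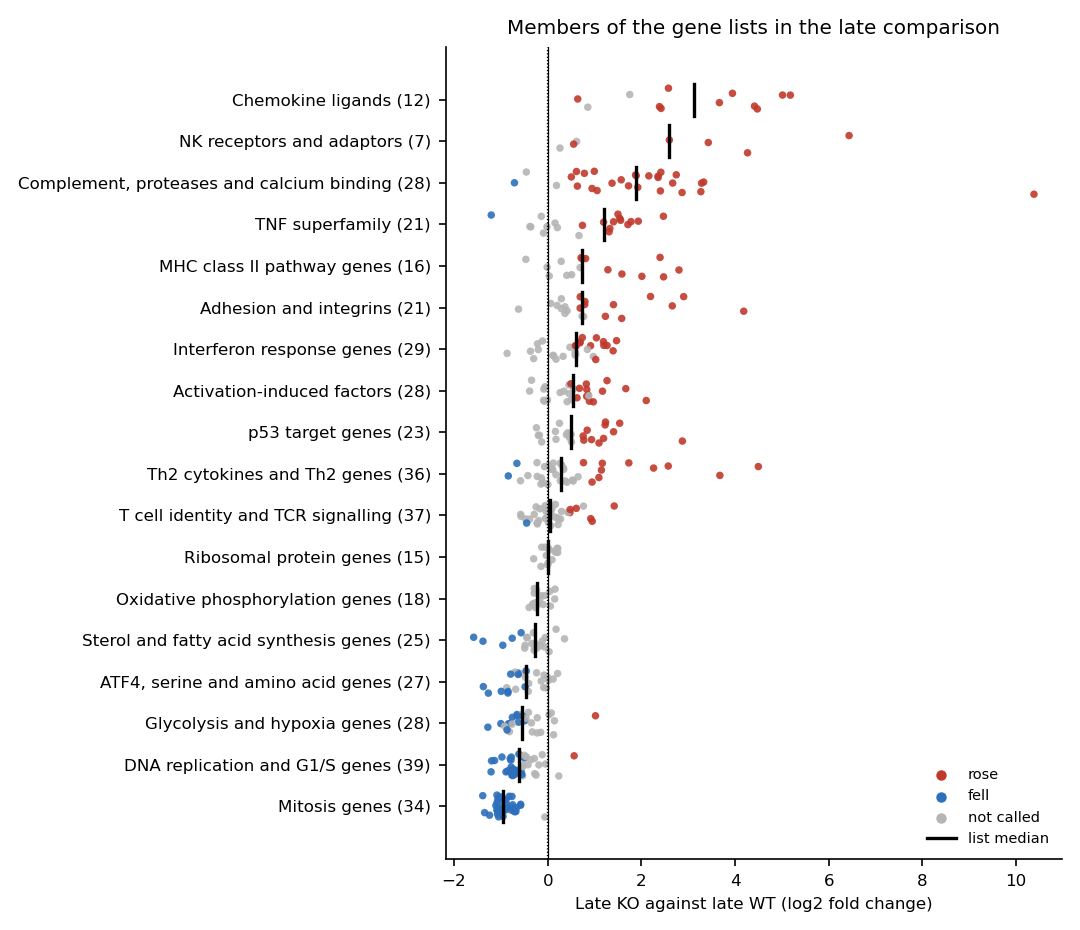
Log2 fold change (KO over WT) of every tested member of 18 gene lists, with the number tested in parentheses; red rose, blue fell, grey not called, black dash the list median, dotted line the median of all tested genes. Tested chemokine ligands lie farthest right and mitosis genes farthest left, while ribosomal protein genes centre near 0.

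Genes of the MHC class II pathway rose in part. Of 19 listed genes 16 were tested and 9 rose (median 0.72). The 9 were 56.2% of those tested, while 15.5% of all tested genes were called. Among them 1 was under 1 RPKM in both WT libraries and passed the filter through KO alone. Cd74, the invariant chain that guides class II molecules, had 126 and 138 CPM in KO and 21.9 and 28.1 CPM in WT (log2 fold change 2.40 ± 0.19, adjusted p = 1.82e-07). H2-Aa, a class II chain, had 31.2 and 40 CPM in KO and 5.86 and 6.90 CPM in WT (log2 fold change 2.47 ± 0.25, adjusted p = 3.87e-06), and H2-Eb1 had 8.43 and 8.82 CPM in KO and 1.12 and 1.34 CPM in WT (log2 fold change 2.80 ± 0.38, adjusted p = 8.14e-05). H2-Ab1, which pairs with H2-Aa, was not called, with 46.7 and 47.6 CPM in KO and 47.4 and 82.8 CPM in WT. The chains of one dimer therefore did not give the same call. The costimulatory ligand Cd86 had 18.3 and 14.4 CPM in KO and 5.51 and 2.61 CPM in WT (log2 fold change 2.01 ± 0.35, adjusted p = 0.000704), and Cd80 had 26.9 and 28.2 CPM in KO and 11.9 and 6.41 CPM in WT (log2 fold change 1.58 ± 0.28, adjusted p = 0.000957).

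Markers of other cell types moved with these groups, at low levels. The 9 B cell markers summed to 7.22 and 9.31 RPKM in KO and 2.03 and 1.91 RPKM in WT, none was at 0, and the 3 that were tested rose, all under 1 RPKM in both WT libraries. Cd79b, a chain of the B cell receptor complex, had 6.87 and 10.4 CPM in KO and 2.02 and 1.34 CPM in WT (log2 fold change 2.34 ± 0.40, adjusted p = 0.000542). Macrophage and dendritic cell markers summed to 14.6 and 14.2 RPKM in KO and 7.05 and 4.96 RPKM in WT. Of 14 listed, 4 were tested and 2 of these rose, both under 1 RPKM in both WT libraries. Of the 12 with values, 1 (Fcgr1) was at 0 in all 4 libraries. Mast cell markers summed to 2.41 and 1.39 RPKM in KO and 0.454 and 0.316 RPKM in WT, with 6 of 11 at 0, and neutrophil and erythroid markers to 0.807 and 1.19 RPKM in KO and 0.412 and 0.390 RPKM in WT, with Elane, Ltf and Camp at 0. CD8 T cell and innate lymphoid markers summed to 24.5 and 19.3 RPKM in KO and 16.6 and 12 RPKM in WT. Of these, 3 were tested and 2 rose, and 1 (Ncr1) was at 0. Their part in the rises of the class II, chemokine, complement and natural killer genes was not tested. In bulk RNA, a change in the number of cells of a type and a change in RNA per cell cannot be told apart.

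Xist, the RNA of the inactive X chromosome in female cells, also differed between the groups. It had 37.4 and 49.5 CPM in KO and 6.69 and 6.34 CPM in WT (log2 fold change 2.73 ± 0.24, adjusted p = 7.59e-07). The Y-linked genes Ddx3y, Eif2s3y, Kdm5d and Uty were present in all 4 libraries and not called, with log2 fold changes of -0.02 ± 0.16, 0.09 ± 0.19, -0.00 ± 0.18 and 0.18 ± 0.18. Reads of Y-linked genes were thus present in every library of the comparison, and the source of the Xist reads was not tested.

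Interferon response genes rose in part. Of 44 listed genes 29 were tested and 13 rose (median 0.60), with 8 to 11 rises when 1 library was left out. The lowest count came without WT library 2. In the main test the 13 were 44.8% of those tested, while 15.5% of all tested genes were called. Of 14 tested interferon-induced GTPases 9 rose. Igtp, one of these GTPases, had 309.7 and 269 CPM in KO and 146 and 107 CPM in WT (log2 fold change 1.19 ± 0.17, adjusted p = 0.000151). Ifih1, the RNA sensor MDA5, had 69.6 and 69 CPM in KO and 26.4 and 23.7 CPM in WT (log2 fold change 1.47 ± 0.19, adjusted p = 3.54e-05), and the antiviral gene Mx1 had 58.9 and 71.5 CPM in KO and 38.1 and 31 CPM in WT (log2 fold change 0.92 ± 0.19, adjusted p = 0.00325).

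Activation-induced genes were divided between rises and genes that were not called. Of 30 listed genes 28 were tested and 13 rose (median 0.53), but 7 rose without KO library 2. The 13 were 46.4% of those tested, while 15.5% of all tested genes were called. Among them 2 were under 1 RPKM in both WT libraries and passed the filter through KO alone. Ier3, an early response gene, had 389.8 and 393 CPM in KO and 192 and 230.0 CPM in WT (log2 fold change 0.89 ± 0.16, adjusted p = 0.00076). Atf3, a stress-induced factor, had 40.9 and 45.6 CPM in KO and 18 and 17.9 CPM in WT (log2 fold change 1.27 ± 0.20, adjusted p = 0.000334), and Nr4a3, an orphan nuclear receptor induced by T cell receptor signals, had 7.86 and 8.18 CPM in KO and 1.88 and 1.83 CPM in WT (log2 fold change 2.10 ± 0.36, adjusted p = 0.000681). Egr1 and Myc, classic immediate early genes, were not called. Egr1 had 344 and 424 CPM in KO and 362 and 444 CPM in WT, and Myc had 244 and 268 CPM in KO and 250.2 and 292 CPM in WT. Both overlapped between groups.

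Targets of p53 rose in 11 of 23 tested genes of 25 listed (median 0.51). The 11 were 47.8% of those tested, while 15.5% of all tested genes were called. Among them 1 was under 1 RPKM in both WT libraries and passed the filter through KO alone. Mdm2, the ligase that degrades p53, had 1294 and 1112 CPM in KO and 443 and 386 CPM in WT (log2 fold change 1.54 ± 0.16, adjusted p = 3.81e-06). Btg2, an antiproliferative gene, had 128 and 152 CPM in KO and 58.7 and 46.8 CPM in WT (log2 fold change 1.41 ± 0.18, adjusted p = 3.53e-05), and Pmaip1, which encodes the death protein Noxa, had 145 and 119.9 CPM in KO and 66.6 and 46.1 CPM in WT (log2 fold change 1.23 ± 0.19, adjusted p = 0.000272). Other targets were not called. Ccng1 had 2269 and 1901 CPM in KO and 1865 and 1294 CPM in WT, and Zmat3 had 795 and 763 CPM in KO and 769.5 and 621 CPM in WT.

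Mitosis genes fell almost without exception. All 34 listed genes were tested and 33 fell, with a median log2 fold change of -0.95, and 28 to 31 fell when 1 library was left out. The 33 were 97.1% of those tested, while 15.5% of all tested genes were called. The 1 gene not called was Pttg1, which encodes securin (log2 fold change -0.06 ± 0.21, adjusted p = 0.888). Mki67, the proliferation marker Ki-67, had 1525 and 1633 CPM in KO and 3168 and 2940 CPM in WT (log2 fold change -0.95 ± 0.15, adjusted p = 0.00026). Cdc25b, a phosphatase that starts mitosis, had 26.6 and 29.2 CPM in KO and 66.5 and 75.4 CPM in WT (log2 fold change -1.35 ± 0.19, adjusted p = 8.65e-05), and the spindle motor Kif11 had 285 and 269.6 CPM in KO and 656 and 538 CPM in WT (log2 fold change -1.11 ± 0.16, adjusted p = 0.000111). The mitotic cyclin Ccnb2 had 76.6 and 79.9 CPM in KO and 164 and 159.8 CPM in WT (log2 fold change -1.05 ± 0.16, adjusted p = 0.000188). Cdc20, which activates the complex that ends metaphase, had 38.4 and 39.8 CPM in KO and 59.6 and 85.3 CPM in WT (log2 fold change -0.89 ± 0.20, adjusted p = 0.00496; adjusted p = 0.0533 without WT library 2). Both KO values lay under both WT values in each of these 5 genes.

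Promoters of Ccnb2, Cdc20 and Kif11 are shown because members of this group fell together and these hold letters known from cell cycle promoters. They are examples and do not stand for every member. The promoter of Birc5, another mitosis gene that fell, held neither motif described next and is not printed. The following motifs were searched on both strands in the 300 bases from 250 before to 50 after the RefSeq start (GRCm38.p6): CCAAT, the letters bound by NF-Y, and TTTGAA, the core of the cell cycle genes homology region. Capitals mark both motifs, which appear as ATTGG and TTCAAA where they lie on the other strand.
Ccnb2: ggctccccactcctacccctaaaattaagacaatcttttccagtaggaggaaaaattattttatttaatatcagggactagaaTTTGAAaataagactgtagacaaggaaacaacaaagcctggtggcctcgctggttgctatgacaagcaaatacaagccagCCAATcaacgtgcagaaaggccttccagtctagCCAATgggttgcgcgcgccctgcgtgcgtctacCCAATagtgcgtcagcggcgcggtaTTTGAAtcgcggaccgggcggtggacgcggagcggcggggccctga
Cdc20: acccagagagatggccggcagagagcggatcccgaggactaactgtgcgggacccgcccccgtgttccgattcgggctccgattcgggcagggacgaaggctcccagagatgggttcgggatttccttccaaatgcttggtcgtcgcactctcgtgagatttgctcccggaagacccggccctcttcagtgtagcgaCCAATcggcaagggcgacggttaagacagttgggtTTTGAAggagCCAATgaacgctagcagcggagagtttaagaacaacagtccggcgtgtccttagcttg
Kif11: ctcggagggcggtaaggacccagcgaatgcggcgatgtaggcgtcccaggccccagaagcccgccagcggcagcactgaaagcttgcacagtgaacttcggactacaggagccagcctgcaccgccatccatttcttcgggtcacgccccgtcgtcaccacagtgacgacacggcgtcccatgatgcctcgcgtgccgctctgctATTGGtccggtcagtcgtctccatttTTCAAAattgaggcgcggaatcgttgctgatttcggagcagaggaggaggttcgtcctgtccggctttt
The windows are chr9:70421505-70421804 (minus) for Ccnb2, chr4:118437294-118437593 (minus) for Cdc20 and chr19:37376132-37376431 (plus) for Kif11. A Bcl11b peak of 30 tags, 1.4-fold enriched in the authors' list, lay over the Kif11 window and none over the other two. Over the mitosis genes that fell, 25 of 33 had a promoter entry, and 80% of these held CCAAT, 76% held TTTGAA and 64% held both. The same shares over all 7177 tested genes with an entry were 39.4%, 12% and 5.28%. The falling genes outside the mitosis and replication lists held CCAAT in 49.3% and TTTGAA in 24% of 383 promoters, and the rising genes in 35.7% and 9.48% of 686. The E2F letters GGCGGGAA were in none of the 25 mitosis promoters, in 15% of the 20 replication promoters and in 4.47% of all.

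Replication factors fell with them and G1/S regulators less so. Of 41 listed genes 39 were tested, 23 fell and 1 rose (median -0.62). Calls made up 61.5% of those tested, against 15.5% of all tested genes. Without KO library 2 the falls came to 12. Of 23 tested replication factors 18 fell, against 5 of 16 G1/S regulators. Cdt1, which licenses origins, had 27.7 and 27.6 CPM in KO and 63.5 and 63.6 CPM in WT (log2 fold change -1.20 ± 0.18, adjusted p = 0.000229). Tk1, which makes thymidine nucleotides, had 31.2 and 37.5 CPM in KO and 68.3 and 90.3 CPM in WT (log2 fold change -1.21 ± 0.20, adjusted p = 0.000384), and Mcm2 of the replicative helicase had 106 and 109 CPM in KO and 182 and 207 CPM in WT (log2 fold change -0.85 ± 0.16, adjusted p = 0.00114). The pairs of values did not overlap in these 3 genes.

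Of the 12 largest falls above 5 RPKM, 10 were replication-dependent histone genes. Hist1h1b, a linker histone gene, had 86.5 and 108 CPM in KO and 233 and 352 CPM in WT (log2 fold change -1.59 ± 0.20, adjusted p = 2.87e-05), and Hist1h2bm had 20.4 and 26.4 CPM in KO and 63.8 and 103 CPM in WT (log2 fold change -1.84 ± 0.23, adjusted p = 3.42e-05). Histone genes have near-identical copies, so the split of reads among them is uncertain. Without WT library 2, 4 of these 10 calls were lost, and without KO library 1, 2 of them. The other two were Myo6 and Scd1. Myo6, a myosin motor that moves toward the minus end of actin filaments, had 149 and 157 CPM in KO and 512 and 487 CPM in WT (log2 fold change -1.71 ± 0.15, adjusted p = 7.87e-07), the smallest adjusted p among the named falls.

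Metabolic genes fell in smaller numbers. Of 28 listed genes of sterol and fatty acid synthesis 25 were tested and 5 fell (median -0.28), and 2 fell without KO library 1. Scd1, which desaturates stearoyl-CoA, had 36 and 43.6 CPM in KO and 109 and 128 CPM in WT (log2 fold change -1.58 ± 0.18, adjusted p = 1.25e-05), and the desaturase Fads1 had 41.7 and 37.5 CPM in KO and 112 and 95 CPM in WT (log2 fold change -1.38 ± 0.18, adjusted p = 4.4e-05). Of 33 listed genes of the ATF4 response and amino acid supply 27 were tested and 10 fell (median -0.47), with 6 falls left without KO library 2. The 10 were 37.0% of those tested, while 15.5% of all tested genes were called. Of the 27, 2 were under 1 RPKM in both KO libraries and entered through WT alone, and 1 of these fell. Asns, asparagine synthetase, had 23.5 and 23.4 CPM in KO and 59.3 and 62.3 CPM in WT (log2 fold change -1.37 ± 0.19, adjusted p = 7.85e-05), and Psat1 of serine synthesis had 284 and 254 CPM in KO and 502 and 466 CPM in WT (log2 fold change -0.85 ± 0.15, adjusted p = 0.000955). Both groups of genes were clearly separated for these 4 members.

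Counts of glycolysis and hypoxia genes varied with the library left out. Of 31 listed genes 28 were tested, 11 fell and 1 rose (median -0.54), but 4 fell without WT library 2, 6 without KO library 1 and 7 without KO library 2. In the main test 42.9% of those tested were called, against 15.5% of all tested genes. Pdk1, which keeps pyruvate out of mitochondria, had 32.5 and 31 CPM in KO and 67.6 and 86.6 CPM in WT (log2 fold change -1.28 ± 0.19, adjusted p = 0.000174), and Ndrg1, a stress gene, went the other way with 239 and 226 CPM in KO and 88.9 and 140.5 CPM in WT (log2 fold change 1.02 ± 0.19, adjusted p = 0.00131). None of 15 tested ribosomal protein genes and none of 18 oxidative phosphorylation genes was called, with medians of 0.02 and -0.22.

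The late effect was set beside that of early deletion, where 4-OHT was present in the first 4 days. The early comparison uses other libraries, so the pair shares no control. The early calls came from a fit of all 8 Bcl11b libraries, and the late calls from the 4 late libraries alone. The spread was larger in the fit of 8 (coefficient of biological variation 0.2806 against 0.1471), so the 2 sets of calls are not of equal power. Of the 941 late rises 341 also rose early (36.2% of the late and 29.7% of the early rises), and 222 of the 613 late falls fell early (36.2% of the late and 24.4% of the early falls). There were 43 late rises that fell early (4.57%) and 9 late falls that rose early (1.47%). Over all tested genes, 11.4% rose and 9.03% fell early. In one fit of these 8 libraries the KO effect differed between stages for 212 genes with a higher late effect (1.95% of 10873) and 140 with a lower one (1.29%). Leaving out any one of the 4 late libraries gave 26 to 43 higher and 10 to 19 lower, and limma on log2(RPKM + 1) gave 263 higher and 5791 lower, so the balance of the directions was not stable. The early WT libraries stand apart in quality: their gene reads were 20.7% and 16.9% of the implied total and their receptor reads 3.74 and 4.84 per kilobase, so each stage difference rests on them, and their part in it was not tested.

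Within that limit, several members differed by stage. Gzmb had an early log2 fold change of 0.05 ± 0.15, not called, and its late minus early difference was -1.40 ± 0.21 (adjusted p = 0.00953). Il13 rose early by 4.48 ± 0.29, with a difference of -3.74 ± 0.36 (adjusted p = 0.00169). The Il13 effect was thus larger at the early stage, where WT gave only 36 and 28 reads. The S100 genes S100a4 and S100a6 also had lower late effects, with differences of -2.70 ± 0.48 (adjusted p = 0.019) and -2.07 ± 0.23 (adjusted p = 0.00287). In the other direction, Ccl9 was not called early (-0.20 ± 0.66) and differed by 5.20 ± 0.84 (adjusted p = 0.0147), and Bhlhe40 differed by 1.15 ± 0.25 (adjusted p = 0.04). C5ar1 was at 45 and 41 reads in early KO and at 6 and 1 in early WT, a far lower level than in late KO. For the mitosis genes named above no stage difference was called: the early log2 fold change was -1.02 ± 0.18 for Kif11 and -1.34 ± 0.17 for Ccnb2, and both fell there. Not every late mitosis fall was called early. Among cyclins, kinases and regulators 10 of 15 late falls also fell early and 5 were not called. Among spindle, kinetochore and cytokinesis genes 9 of 18 fell early and 9 were not called.

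Some Th2 cytokine genes went the opposite way in the late Gata3 comparison. It shares no library with the late Bcl11b comparison. Of the late Bcl11b rises 101 fell and 184 rose after Gata3 deletion (10.7% and 19.6% of the 941), and of the falls 60 also fell and 15 rose (9.79% and 2.45% of 613). Over all tested genes, 5.67% fell and 5.48% rose after Gata3 deletion. The Gata3 calls came from a fit of 8 libraries, the late Bcl11b calls from the fit of 4. In one fit of both experiments, 639 genes had a higher effect of Bcl11b deletion (5.86% of 10913) and 350 a lower one (3.21%). Il5 had a log2 fold change of -7.33 ± 0.30 after Gata3 deletion, and the difference was 9.06 ± 0.36 (adjusted p = 7.05e-10). Penk had -4.05 ± 0.18 with a difference of 6.62 ± 0.25 (adjusted p = 4.73e-10), and Il13 had -5.15 ± 0.22 with a difference of 5.91 ± 0.28 (adjusted p = 3.59e-09). These 3 genes were named because their p-values for this difference were the smallest. Of the 7 listed cytokine genes that rose after late Bcl11b deletion, 4 fell after Gata3 deletion and 3 were not called, among them Il3 and Csf2 at -1.55 ± 1.51 and 0.09 ± 0.80. The cytokine receptor chain Csf2rb2 showed the same opposition, with -2.79 ± 0.40 after Gata3 deletion and a difference of 5.02 ± 0.47 (adjusted p = 5.18e-06). Mitosis genes were not called after Gata3 deletion in the examples here: Kif11 was at -0.33 ± 0.16 and Ccnb2 at 0.00 ± 0.15, with differences of -0.79 ± 0.23 (adjusted p = 0.0427) and -1.06 ± 0.21 (adjusted p = 0.00409). The 2 experiments also differed in Xist, which gave 4253 to 6935 reads per library in the Gata3 experiment, and in Y-linked genes, which gave 0 or 1 read there; sex of the cells and the deleted gene cannot be told apart in this difference.

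**Figure D4:**
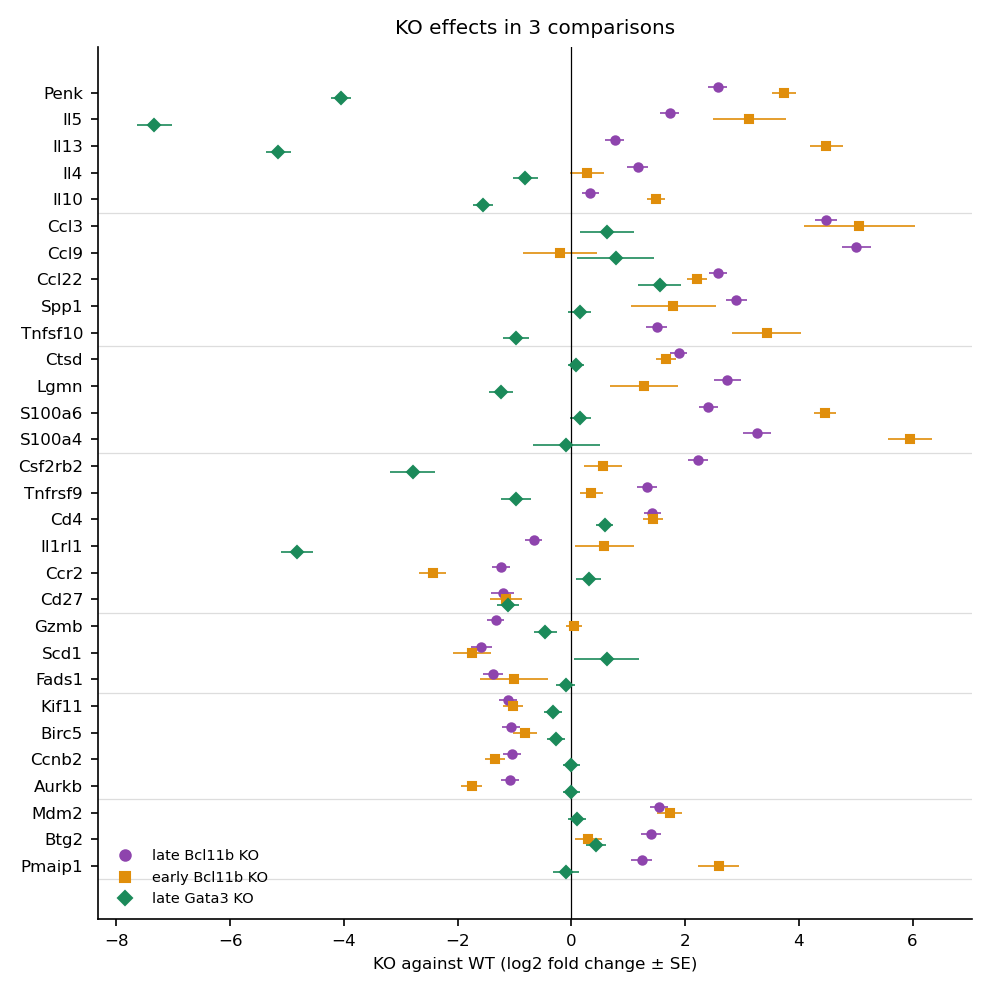
Log2 fold change of KO over WT ± SE for 30 named genes after late Bcl11b deletion (circles, fit of 4 libraries), early Bcl11b deletion (squares) and late Gata3 deletion (diamonds; both from fits of 8 libraries). The 5 Th2 cytokine genes shown lie right of 0 for Bcl11b and left of 0 for Gata3, and the mitosis genes lie left of 0 in both Bcl11b comparisons.

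Each difference comes from an 8-library fit with its own spread, so it need not equal the subtraction of the printed effects.

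Binding of Bcl11b and GATA3 in late WT cells was read from the authors' peak lists, 1 library each without replicates. Of 17459 Bcl11b peaks 12.6% overlapped a peak of the input, and of 28612 GATA3 peaks 4.94% did, and these were left out. Within 1 kb of the start, a Bcl11b peak lay at 31.6% of rising, 31.8% of falling and 32.4% of all tested genes. The share was thus nearly the same for genes that rose, fell or were not called (32.5%). With peaks over the input kept, it was 37.4% of rising, 44.4% of falling and 43.1% of all genes. At any assigned distance it was 60.3% of rising and 54.0% of falling genes against 51.6% of all, and for GATA3 66.7% and 57.6% against 54.6%. Both factors had a peak at 51.3% of rising and 40% of falling genes against 38.1% of all. The levels of the genes differ between these sets, and among genes with at least 5 RPKM in the higher group the Bcl11b shares were 64.0% of rising and 53.8% of falling genes against 55.1% of all.

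Peaks were unevenly spread over the gene groups. A Bcl11b peak at any distance was assigned to 51.6% of all tested genes. It was assigned to 12 of the 13 activation genes that rose and to 17 of the 33 mitosis genes that fell. The mitosis share was thus near that of all tested genes. Chemokine ligands had one at 3 of 10 rising members, none of them within 1 kb of the start, and class II genes at 1 of 9. The largest rise, C5ar1, had 2 Bcl11b peaks, the nearer at chr7:16260902-16261505 with 17 tags and a 3.4-fold enrichment. Penk and Cd4 had GATA3 peaks only, and Spp1, Ccl3, Ccl9 and Cd74 had neither. Of falling genes, the Bcl11b peaks with the highest score within 1 kb lay at Hist1h1e, a linker histone gene (217 tags, 14.0-fold), and at Tacc3, a spindle protein gene (199 tags, 4.52-fold). Hist1h1e averaged 166.9 ± 34.4 CPM in KO and 383.7 ± 150 CPM in WT (SD, n = 2 each), with a log2 fold change of -1.20 ± 0.22 and an adjusted p of 0.00111. Among rising genes they lay at Ktn1, a kinesin receptor gene (111 tags, 5.81-fold), Pias3, Appl2 and Slc19a2. For GATA3 they lay at Il4, Il13, Mmp10 and Zfpm1 among rising genes, and at Slc7a1, Art2a-ps, Mei4 and Stra6 among falling genes. Not all of these calls were firm: leaving out 1 library ended those of Pias3 (adjusted p = 0.313 without KO library 2 and 0.289 without WT library 1), Appl2 (0.111 without KO library 2), Slc7a1 (0.206 without KO library 2) and Art2a-ps (0.319 without KO library 1 and 0.176 without WT library 1). The Zfpm1 call ended without KO library 1, KO library 2 or WT library 1 (adjusted p = 0.0614, 0.287 and 0.265), and the Slc19a2 call without any one of the 4 libraries.

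**Figure D5:**
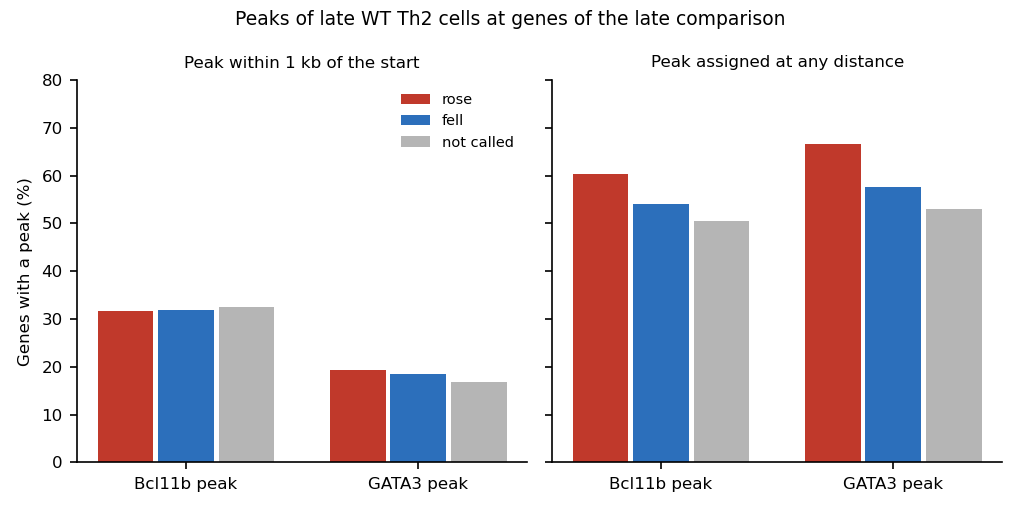
Share of genes (%) with a Bcl11b or GATA3 peak of late WT cells within 1 kb of the start (left) or at any assigned distance (right), for genes that rose (red), fell (blue) or were not called (grey) in the late comparison. Near the start the Bcl11b bars are level, while at any distance the rising genes stand highest for both antibodies.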

How the data were processed

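RNA was extracted with RNeasy Mini columns and 10 ng were amplified with NuGEN Ovation V2, per the labels' protocols. The authors deposited 1 table per library with a read count and an RPKM value for each of 29257 transcripts, per the file headers. Tools listed in the submitters' processing notes, without their roles, were MACS 1.4.2, Novoalign, Bowtie, TopHat2 2.0.13 and CASAVA 2.18, and the build was mm10. Whether counting used strand was not given in the sources used here, so overlapping and antisense genes cannot be told apart. The authors' peak lists, 1 per ChIP library, give the tag count, the score (the negative log10 of p times 10), the fold enrichment as a ratio and a false discovery rate in percent of each peak, per the file headers; the control and the threshold are not given.

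Each symbol was represented by its transcript with most reads in the 16 RNA libraries together, and a gene was tested when its deposited RPKM reached 1 in at least 2 of the 4 libraries. Whole counts were tested with edgeR 4.0.16 (quasi-likelihood test, trimmed mean scaling, R 4.3.3) on these 4 libraries alone, with the threshold at an adjusted p of 0.05. The differences from the early Bcl11b and the late Gata3 effect came from interaction terms in fits of 8 libraries. With 2 libraries a group, 2 residual degrees of freedom remained in the late fit before the spread was shared among genes, and its coefficient of biological variation was 0.1471. Alternatives were DESeq2 1.42.0, limma 3.58.1 on log2(RPKM + 1) and log2(RPKM + 0.1), other filters, the longest transcript, subtraction of background, other sets of libraries, the replicate block and leaving out each library. The scripts were tested on simulated data. Tables used Python 3.11.15, pandas 2.3.3 and scipy 1.17.1. Promoters came from RefSeq, with an entry for 7177 of the 10052 tested genes, and a peak counted as overlapping the input at 1 shared base.

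The comparison, the members and the gene lists were chosen with earlier results of these data known. Named genes followed a written rule: 8 fixed genes; the 12 largest rises and falls among called genes of at least 5 RPKM in the higher group whose groups did not overlap; up to 4 called and 2 uncalled genes per role of each list; the 6 smallest p-values of each difference; and the genes at the peaks with the highest score. Adam19, Areg, Ccl17, Cdc20, Mki67, Foxp3, Ctsa, S100a10, Cd79b and the Y-linked genes were added after their values were seen. Some genes that the rule selected are not reported here. Sequence windows give the letters of the reference, not of these cells.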

Additional observations from a re-analysis of the deposited data

Results flagged for a closer look

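For 12 genes the interaction test of edgeR gave the smallest p-values for a difference between the late Bcl11b KO effect and another KO effect, in a fit of 8 libraries each; differences are on the log2 scale.

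In the comparison of the late with the early Bcl11b effect, the complement gene C3 differed by 9.01. C3 gave 10 and 16 reads in early KO and 833 and 542 in early WT, against 384 and 203 in late KO and 67 and 69 in late WT, so it was lower in KO at the early stage and higher at the late one. The mucin gene Muc5b differed by 11.2, with 3 and 4 reads in early KO, 741 and 701 in early WT, 13 and 4 in late KO and 1 and 2 in late WT. Slc2a3, a glucose transporter gene, differed by 4.29, with 524 and 301 reads in early KO, 4442 and 3436 in early WT, 4414 and 2808 in late KO and 3434 and 4827 in late WT. Nid1, a basement membrane gene, differed by 7.88 and had 331 and 255 reads in late KO and 24 and 28 in late WT. Xist differed by 8.08, with 1 and 1 reads in early KO, 19 and 28 in early WT, 528 and 466 in late KO and 96 and 90 in late WT. Il13 differed by -3.74, the larger rise being the early one. The early WT libraries stand apart from all others in their share of gene reads, and their part in these differences was not tested.

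In the comparison of late Bcl11b with late Gata3 deletion, Il5 differed by 9.06, Penk by 6.62 and Il13 by 5.91. Penk gave 551 and 983 reads in Gata3 KO and 15517 and 15935 in Gata3 WT, and Il5 gave 15 and 19 reads in Gata3 KO and 4169 and 2697 in Gata3 WT. The steroid enzyme gene Akr1c18 differed by 5.71, with 16633 and 8695 reads in Bcl11b KO, 16217 and 11961 in Bcl11b WT, 402 and 832 in Gata3 KO and 36760 and 37214 in Gata3 WT. The Th2 chemokine receptor gene Ccr8 differed by 4.47, with 2348 and 1997 reads in Bcl11b KO, 2183 and 2078 in Bcl11b WT, 194 and 365 in Gata3 KO and 6936 and 5216 in Gata3 WT. Stra6, a vitamin A transporter gene, differed by -3.8, with 1270 and 856 reads in Bcl11b KO, 2204 and 2478 in Bcl11b WT, 3350 and 5196 in Gata3 KO and 662 and 750 in Gata3 WT. Expression of Xist and of Y-linked genes also differed between the 2 experiments, and sex and deleted gene cannot be told apart there.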

How the results depend on the processing

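The late comparison gave 941 rises and 613 falls. Counts stayed within 1.5 times of these with DESeq2, size factors of DESeq2 in edgeR, the longest transcript and background subtracted. They moved to 578 rises and 1094 falls in limma with log2(RPKM + 1), 562 and 1046 with log2(RPKM + 0.1), 192 and 62 in the fit of 8 libraries, and 446 and 263 in that of 16; falls came to 971 with no filter and 404 at 5 RPKM. Leaving out 1 library gave 622 to 883 rises and 318 to 622 falls. With the replicate number as a block there were 1665 rises and 1459 falls; same-numbered libraries shared deviations (r = 0.379), but with only 2 pairs the numbers do not establish a pairing, and the cause was not tested.

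The counts of stage differences, 212 higher and 140 lower, were the least stable: 538 and 364 in DESeq2, 132 higher with background subtracted, 262 lower with no filter, 5791 and 5621 lower in the limma fits, 33 and 16 with the replicate block, and 26 to 387 higher and 10 to 334 lower when 1 library was left out. The differences from Gata3, 639 higher and 350 lower, moved to 412 and 350 higher in the limma fits, 773 lower with no filter, 1242 and 977 with the replicate block, and 399 to 552 and 209 to 323 without 1 library. The cause was not tested.

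Shares of genes with a Bcl11b peak near the start, for rising and falling genes, were 0.106% and 0.326% at a fold enrichment of at least 10, 40.9% and 37.8% within 5 kb, and 37.4% and 44.4% with input peaks kept or with a larger overlap required for an input peak. For GATA3 they were 0.425% and 0.489%, 40.3% and 35.4%, with 22.8% and 22.5% of falling genes under the input settings.

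Of 111 called genes named here, 44 lost their call in the fit of 8 libraries, 27 in that of 16, 6 in each limma fit, 2 in DESeq2, and 2 to 8 when 1 library was left out. Il4, Il5 and Il13 were among those lost in the fit of 8 libraries. Direction reversed only for genes near 0 that were not called. In the limma fits with pseudocounts of 1 and 0.1 these were Cd3e (-0.0465 and -0.0466), Cd44 (-0.13 and -0.14), Ctla4 (-0.11 and -0.11), Eif2s3y (-0.0803 and -0.0821), Foxp3 (-0.0487 and -0.0909), Gzma (-0.0932 and -0.0934), Uty (-0.0196 and -0.0232) and Zmat3 (-0.0315 and -0.032). Other settings gave -0.0035 for Cd44 (with no filter), 0.0338 for Ddx3y (at 5 RPKM) and 0.0382 for Il2ra (at 5 RPKM). Without 1 library the ranges were -0.0088 to 0.14 for Cd44, -0.14 to 0.10 for Ddx3y, -0.24 to 0.0825 for Egr1, -0.19 to 0.43 for Eif2s3y, -0.0562 to 0.24 for Foxp3, -0.086 to 0.32 for Gzma, -0.12 to 0.0686 for Il2ra, -0.0615 to 0.0354 for Kdm5d, -0.19 to 0.0319 for Myc and -0.13 to 0.0132 for Pttg1. With no filter there were 1230 rises, and 1467 of the 1554 calls remained, so the filter kept out further genes that this depth could call.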
